A study of Homo sapiens with 6 samples.

Results

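The tetraspanins were compared between cells given a KDM4A overexpression plasmid and cells given a control plasmid. They were taken as every protein-coding row of the deposited table whose symbol is TSPAN followed by a number, or is CD9, CD37, CD53, CD63, CD81, CD82, CD151, UPK1A or UPK1B. This gave 31 genes of 60664 rows, of which 19966 were protein-coding. RNA was sequenced from cells labelled HCT8, an established human colorectal cancer line, in 3 libraries labelled KDM4A-overexpressing and in 3 labelled WT, and both groups had been transfected with a plasmid and carry the same batch label. The labels do not say whether a group's libraries came from separate cultures. The p-values therefore set the difference between the groups against the spread of these samples only, and that spread may be technical. No source used here gives the time after transfection or the promoter on the plasmid.

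Tetraspanins are small membrane proteins that cross the membrane several times, carry a large extracellular loop held by cysteines, and gather integrins, proteases and receptors into membrane domains. CD9, CD63 and CD81 are the usual markers of extracellular vesicles, CD151 and CD82 are known as partners or regulators of integrins, and the TspanC8 group escorts the shedding protease ADAM10 to the cell surface. UPK1A and UPK1B form urothelial plaques with other uroplakins, and CD37, CD53 and TSPAN32 are mostly found in leukocytes. TSPAN8 and TSPAN1 are known from gut and other epithelia, and TSPAN8 from colorectal carcinoma.

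Library totals ranged from 14284240 to 23905980 counts, and KDM4A itself stood at 152, 157 and 159.7 CPM in the KDM4A plasmid libraries, against 42.8, 45.8 and 45.2 CPM in the control plasmid libraries. CPM are counts scaled to a common library size, with a TMM factor for differences in composition. Colorectal epithelial markers did not stand at like levels in the groups. The summed level of 12 such genes (EPCAM, KRT8, CDX2 and others) was 3565 to 3819 CPM with the KDM4A plasmid and 264 to 279 CPM with the control plasmid. By the test described below 10 of the 10 tested rose, where 40.0% of all genes tested were called higher and 38.6% lower. CEACAM5 and KRT20 had too few counts to be tested, and no gene of the list was at 0 in either group. A list of 9 genes of embryonic kidney and its cell lines, led by IRS4, summed to 449.8 to 473 CPM with the KDM4A plasmid and 2271 to 2682 CPM with the control plasmid, with 2 of 9 higher and 6 lower. The 2 higher were PAX8, with 141 counts with the KDM4A plasmid and 11 with the control plasmid, and SIX2, with 558 and 433. Summed levels with the KDM4A plasmid and with the control plasmid were 13.5 to 16.1 and 19.8 to 21.4 CPM for 7 fibroblast genes, 3.25 to 3.81 and 1.53 to 2.96 CPM for 7 leukocyte genes, and 0.973 to 1.10 and 0.395 to 0.580 CPM for 4 endothelial genes, with FAP among the fibroblast genes and CDH5 among the endothelial ones at 0 with the control plasmid. For 5 urothelial genes they were 7.33 to 9.24 CPM with the KDM4A plasmid and 8.19 to 9.50 CPM with the control plasmid. IRS4 alone averaged 323 CPM with the KDM4A plasmid and 2148 CPM with the control plasmid. Both groups carry the HCT8 label, but whether they hold the same cell line was not tested. In every fold change between them, a difference between cell lines and one that came with the plasmid therefore cannot be told apart. The part of these marker differences in the tetraspanin values was not tested. In bulk RNA, fewer cells of a type and less RNA per cell cannot be told apart.

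Tetraspanin mRNA was higher in total with the KDM4A plasmid, while the share of members called was near that of all genes. The summed level of the 31 genes was 1520 ± 28.2 CPM in KDM4A plasmid libraries and 968 ± 57.1 CPM in control plasmid libraries (SD, n = 3 each). The lowest KDM4A plasmid library, at 1499 CPM, lay above the highest control library, at 1030.0 CPM (exact permutation test, two-sided, p = 0.1, the smallest that 3 against 3 allows). Of the 31 genes, 24 had enough counts to be tested. By edgeR's quasi-likelihood test with Benjamini-Hochberg adjusted p under 0.05 over all 17147 genes tested, 15 tetraspanins rose, 5 fell and 4 did not pass. The called members made up 83.3% of those tested, near the 78.6% of all genes tested that passed. Over all genes 40.0% were called higher and 38.6% lower, while 62.5% and 20.8% of the 24 tested tetraspanins were. By at least 2-fold, 9 tetraspanins were higher and 1 was lower, beside 16.4% and 13.6% of all genes. The median log2 fold change was 0.57 over the 24 tetraspanins and 0.03 over all genes tested. The ranges of the groups did not overlap for 20 of the 24 tested tetraspanins, 15 higher and 5 lower. Over all genes tested this held for a similar share, 79.7%, with 40.4% higher and 39.3% lower.

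**Figure D1:**
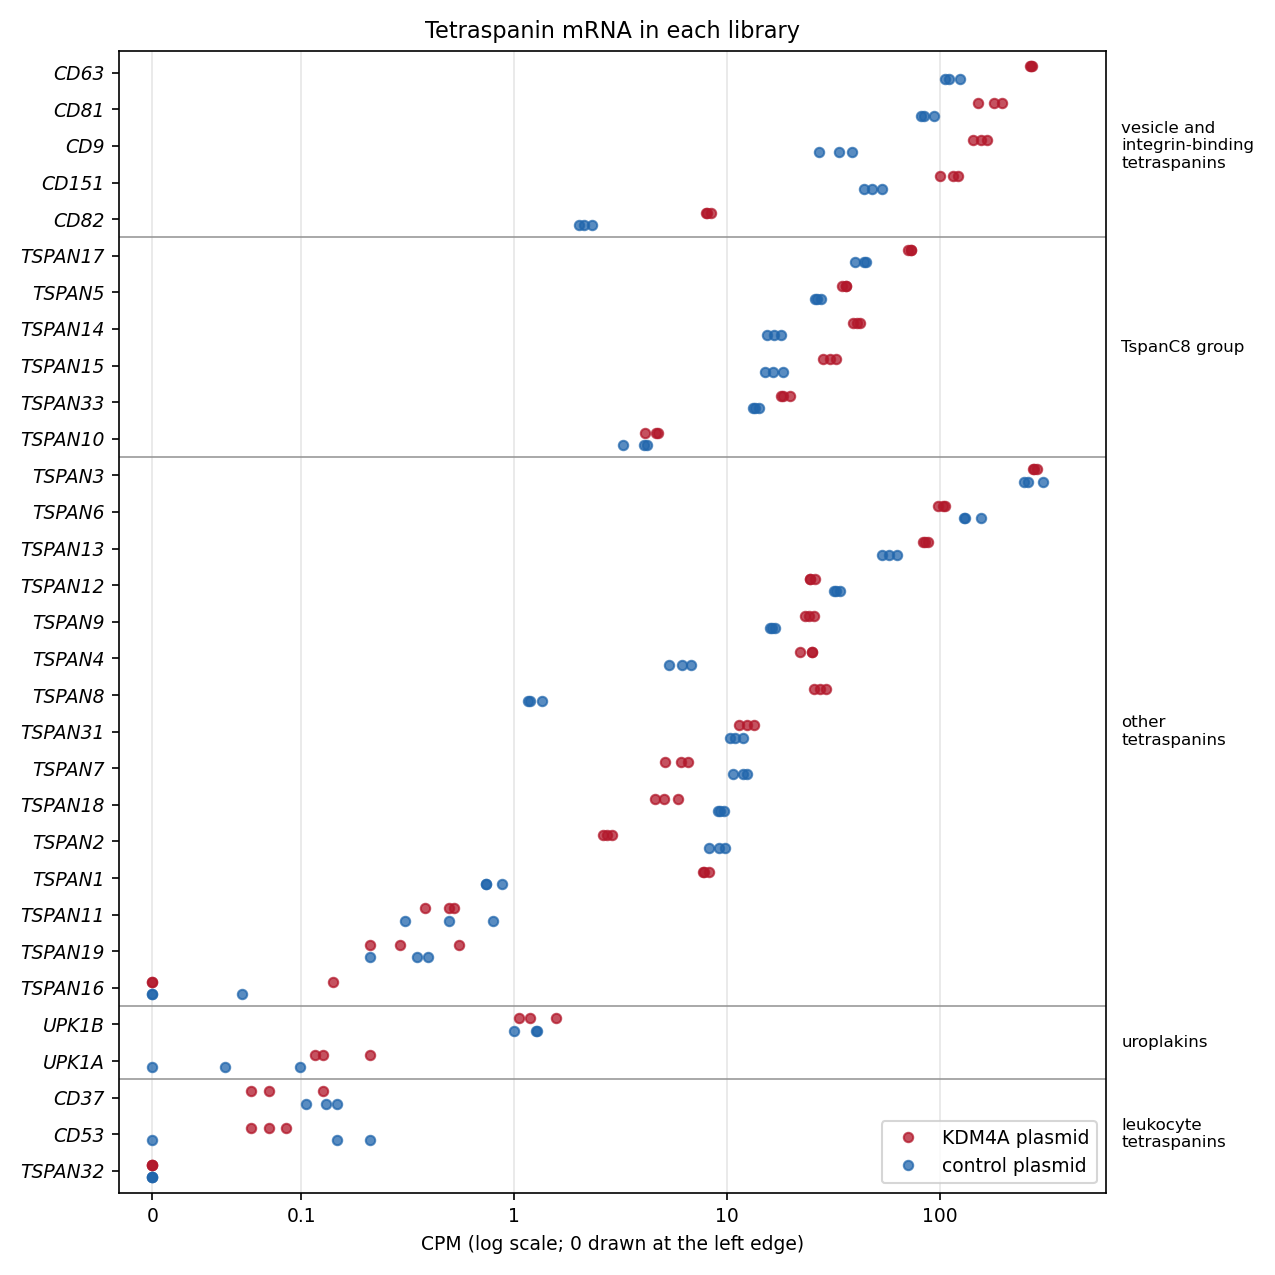
Level of each of the 31 tetraspanins in each library, in CPM on a log scale, with KDM4A plasmid libraries in red above control plasmid libraries in blue and values of 0 at the left edge. TSPAN8 and TSPAN1 show the widest separation between the groups, TSPAN3 overlaps at the top of the scale, and TSPAN32 is at 0 in every library.

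The vesicle and integrin-binding tetraspanins all rose, where 40.0% of all genes tested were called higher and 16.4% higher by at least 2-fold. All 5 of CD9, CD63, CD81, CD82 and CD151 passed the test, each by at least 2-fold, with a median log2 fold change of 1.24. The size depended on the setting. With exon length trends removed all 5 were still called higher, but CD63 (0.90), CD151 (0.92) and CD81 (0.72) were under 2-fold. CD9 (1.90) and CD82 (1.74) were then still above it. CD9 (ENSG00000010278, chromosome 12, 6199715 to 6238271, plus strand, GRCh38.p13 as the file gives it), known in cell adhesion, vesicles and gamete fusion, stood at 166, 156 and 142 CPM with the KDM4A plasmid, against 26.9, 33.5 and 38.3 CPM with the control plasmid. Every KDM4A plasmid library lay well above every control library, although the 3 controls also differed among themselves. CD9 differed by 2.23 on the log2 scale (SE 0.10, edgeR adjusted p = 5.5e-11), or 4.68-fold.

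CD63 (ENSG00000135404, chromosome 12, 55725323 to 55729707, minus strand) sits in late endosomes, lysosomes and the vesicles released from them. It had 264, 269.5 and 268 CPM with the KDM4A plasmid, against 109.8, 106 and 124 CPM with the control plasmid, which is 1.24 higher on the log2 scale (SE 0.06, edgeR adjusted p = 3.3e-12). The KDM4A plasmid libraries were almost alike, and all lay above the controls. CD81 (ENSG00000110651, chromosome 11, 2376177 to 2397397, plus strand), an entry factor for hepatitis C virus, had 149.9, 194 and 179 CPM with the KDM4A plasmid, against 93.3, 83.6 and 80.9 CPM with the control plasmid. Its spread was the larger one in the KDM4A plasmid group, where replicate 1 was low, and the difference was 1.02 on the log2 scale (SE 0.08, edgeR adjusted p = 9.3e-09).

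CD151 (ENSG00000177697, chromosome 11, 832887 to 839831, plus strand) binds laminin-binding integrins tightly. Its level was 100.1, 121 and 114 CPM with the KDM4A plasmid, against 53.1, 47.9 and 44.0 CPM with the control plasmid (log2 fold change 1.21, SE 0.08, edgeR adjusted p = 1.1e-10). The groups did not overlap. The gene's span overlaps that of POLR2L on the opposite strand, which also rose (log2 fold change 1.66, SE 0.10, edgeR adjusted p = 4.5e-09), and without a stated strand setting reads of the overlap cannot be told apart. CD82 (ENSG00000085117, chromosome 11, 44564427 to 44620358, plus strand), known as the metastasis suppressor KAI1, was the least abundant of the 5. It had 8.02, 8.38 and 7.96 CPM with the KDM4A plasmid, against 2.32, 2.12 and 2.02 CPM with the control plasmid, which is 1.92 higher on the log2 scale (SE 0.13, edgeR adjusted p = 3.3e-10).

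**Figure D2:**
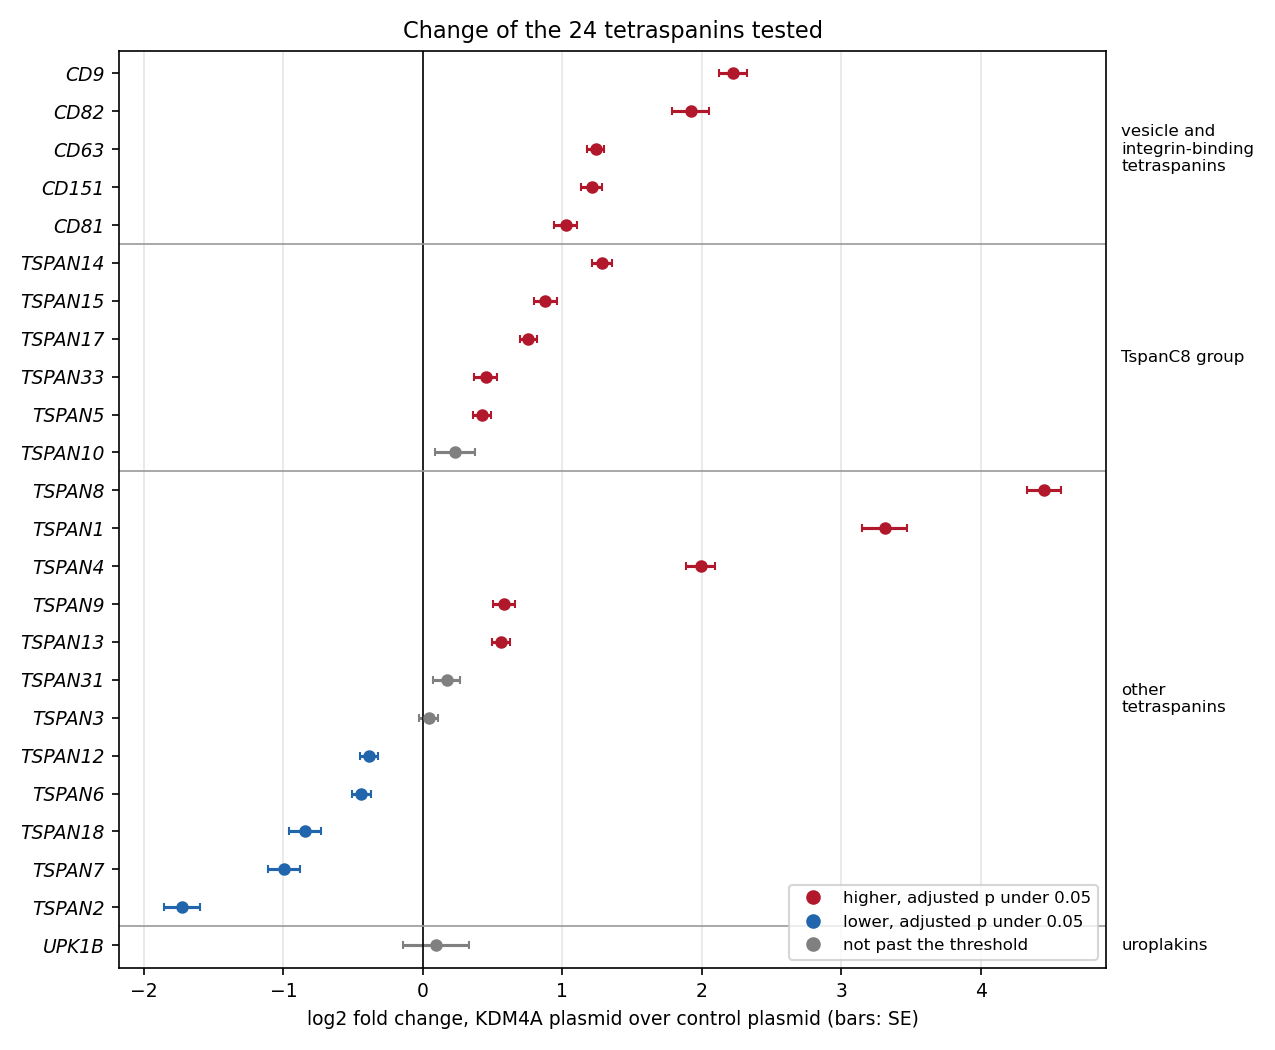
Log2 fold change of the 24 tested tetraspanins, KDM4A plasmid over control plasmid, with bars for the SE, grouped by role and coloured by the edgeR call. All 5 vesicle and integrin-binding genes lie at 1.02 or above, the TspanC8 group lies between 0.23 and 1.28, and the 5 genes that fell are all among the other tetraspanins.

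Because CPM does not allow for gene length, levels of different members were compared in TPM, a length-scaled abundance computed from the counts and the deposited exon lengths. TPM carries no TMM factor, and it put the ratio of KDM4A plasmid to control plasmid lower than CPM did. TSPAN3 averaged 277 and 269 CPM with the KDM4A and control plasmids, but 80.3 and 98.4 TPM. The calls rest on counts with TMM factors. CD63 was the most abundant tetraspanin in both groups, at 481 ± 12.5 TPM with the KDM4A plasmid and 257 ± 10.5 TPM with the control plasmid (SD, n = 3 each). CD9 ranked 2 of 31 with the KDM4A plasmid (232 ± 15.1 TPM), just above CD81 (217 ± 31.2 TPM), a gap within their spread. With the control plasmid CD9 ranked 7 (62.3 ± 8.86 TPM) and CD81 ranked 2 (135 ± 14.6 TPM). The order at the top of the controls was CD63, CD81, TSPAN3 and TSPAN6, and with the KDM4A plasmid it was CD63, CD9, CD81 and CD151. Among the lower ranks, TSPAN8 held rank 9 with the KDM4A plasmid and 20 with the control plasmid, while TSPAN12 held ranks 13 and 9 and TSPAN7 ranks 19 and 12.

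The make-up of the pool differed accordingly. CD9 took 15.0% ± 1.29 of the summed tetraspanin TPM with the KDM4A plasmid and 6.39% ± 0.998 with the control plasmid (SD, n = 3 each), and CD63 took 31.1% ± 0.465 and 26.3% ± 1.04. Together CD9, CD63 and CD81 made up 60.1% ± 0.407 with the KDM4A plasmid and 46.5% ± 0.551 with the control plasmid. TSPAN3 went the other way, at 5.20% ± 0.192 with the KDM4A plasmid and 10.1% ± 0.612 with the control plasmid, as did TSPAN6, at 3.22% ± 0.157 and 8.74% ± 0.531. For each of these the groups did not overlap (exact permutation test, two-sided, p = 0.1 each, the smallest possible). The share of CD81 overlapped between the groups, at 12.3% to 15.2% with the KDM4A plasmid and 12.4% to 15.0% with the control plasmid (exact permutation p = 0.8). The ratio of CD9 to CD81 in CPM was 0.899 ± 0.179 with the KDM4A plasmid and 0.388 ± 0.0933 with the control plasmid (exact permutation p = 0.1). It is not scaled for gene length, so it compares the groups and does not say which gene was more abundant. The shares were not recomputed with exon length trends removed. In that setting the log2 fold change of CD63 was 0.90 instead of 1.24, and that of TSPAN3 was 0.47 instead of 0.04. CD9 was then at 1.90 instead of 2.23, and TSPAN6 at -0.34 instead of -0.44. The part of exon length in these shifts of share was not tested.

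**Figure D3:**
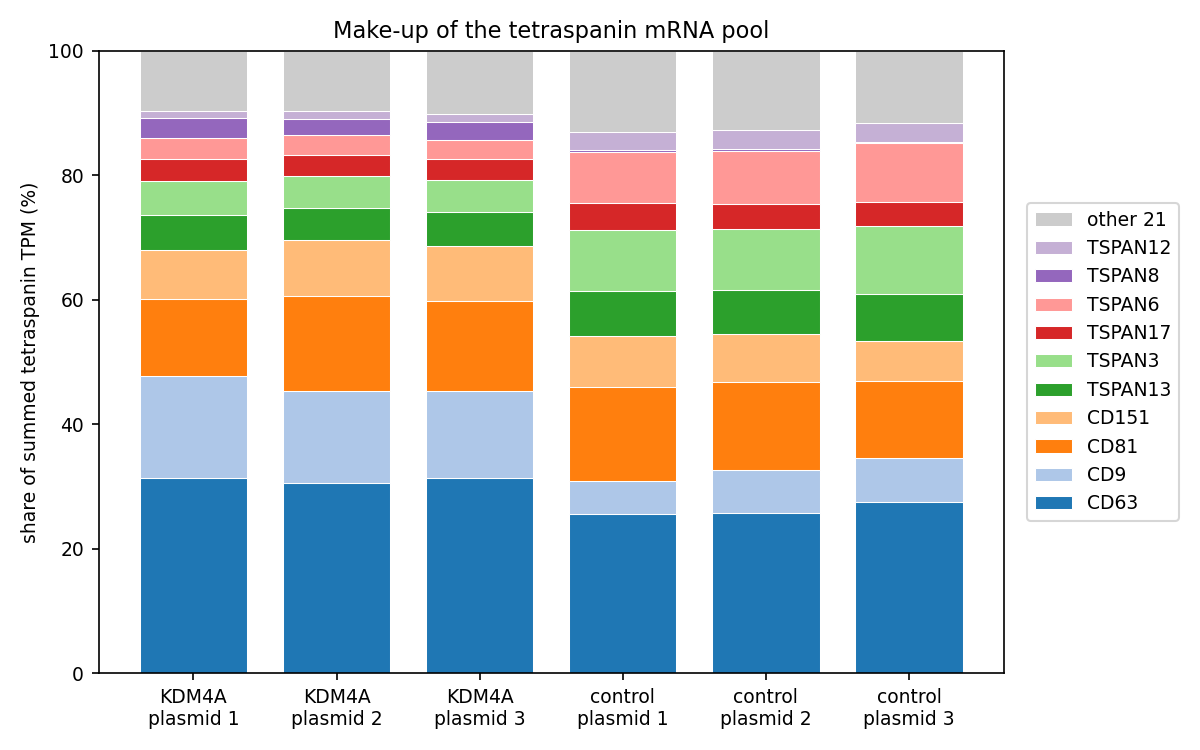
Share of the summed tetraspanin TPM taken by 10 members and by all the others, in percent, 1 bar per library, with KDM4A plasmid libraries on the left. CD9 widens to between 13.9% and 16.4% with the KDM4A plasmid, against 5.25% to 7.09% with the control plasmid, and TSPAN3 and TSPAN6 narrow.

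TSPAN8 showed the largest rise of the family. TSPAN8 (ENSG00000127324, chromosome 12, 71125085 to 71441898, minus strand) had 29.2, 25.6 and 27.2 CPM with the KDM4A plasmid, against 1.16, 1.18 and 1.36 CPM with the control plasmid. The control libraries were low and alike, with 77 counts in all beside 1495 with the KDM4A plasmid. The difference was 4.45 on the log2 scale (SE 0.12, edgeR adjusted p = 1.7e-15), or 21.9-fold. The deposited span of TSPAN8 overlaps the start of LGR5, an intestinal stem cell receptor gene on the opposite strand, for which the log2 fold change was 0.11 (SE 0.11, edgeR adjusted p = 0.337). TSPAN1 (ENSG00000117472, chromosome 1, 46175073 to 46185962, plus strand) came next, with 8.25, 7.70 and 7.75 CPM with the KDM4A plasmid, against 0.739, 0.740 and 0.876 CPM with the control plasmid. Its groups were far apart, although the control level rests on 49 counts, and the log2 fold change was 3.31 (SE 0.16, edgeR adjusted p = 3.5e-12). Both genes moved in the same direction as the epithelial markers given above.

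The sequence before the annotated start was compared for the 2 members that rose most and the member that fell most, a contrast that did not hold over the other members. The 250 bases before the RefSeq start (GRCh38.p14 table) are shown for TSPAN8 (chr12:71158000-71158249, minus strand), TSPAN1 (chr1:46174837-46175086, plus strand) and TSPAN2 (chr1:115089504-115089753, minus strand), chosen as the 2 largest rises and the largest fall, with every CG dinucleotide in capitals. The RefSeq start of TSPAN8 lies inside the longer span that the deposited table gives, and which start the cells used was not measured.
TSPAN8: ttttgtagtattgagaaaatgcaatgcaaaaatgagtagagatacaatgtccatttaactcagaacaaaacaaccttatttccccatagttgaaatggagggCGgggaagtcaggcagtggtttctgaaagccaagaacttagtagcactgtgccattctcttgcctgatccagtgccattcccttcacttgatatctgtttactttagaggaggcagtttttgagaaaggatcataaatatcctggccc
TSPAN1: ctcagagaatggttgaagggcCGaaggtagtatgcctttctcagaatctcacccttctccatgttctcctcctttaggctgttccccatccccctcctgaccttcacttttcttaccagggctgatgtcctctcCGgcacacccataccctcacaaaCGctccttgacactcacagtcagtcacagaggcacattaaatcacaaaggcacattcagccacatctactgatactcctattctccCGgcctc
TSPAN2: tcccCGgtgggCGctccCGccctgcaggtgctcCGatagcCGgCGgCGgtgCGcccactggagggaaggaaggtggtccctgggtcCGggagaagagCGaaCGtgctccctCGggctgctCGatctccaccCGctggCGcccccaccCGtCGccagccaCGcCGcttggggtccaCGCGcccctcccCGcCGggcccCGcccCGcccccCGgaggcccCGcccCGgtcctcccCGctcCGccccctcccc
TSPAN8 held 1 CG dinucleotide and TSPAN1 held 4, counts that 14.7% and 34.3% of the 35116 promoters in the RefSeq table do not exceed. TSPAN2 held 30, which 89.2% of all promoters do not exceed. GC content was 40.8% for TSPAN8, 51.2% for TSPAN1 and 79.2% for TSPAN2. RefSeq promoters were matched for 23 of the 31 members, and the median ratio of observed to expected CG was 0.70 over the 12 matched members that rose, 0.53 over the 3 that fell and 0.56 over all promoters. These medians ran the other way from the 3 promoters shown. TSPAN6 and TSPAN12, the other matched members that fell, held 3 and 8 CG dinucleotides.

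Motifs were counted in the same windows on both strands. The GC box GGGCGG, a binding site of SP1-type factors, was found in 12 of 23 members (52.2%) and in 42.6% of all promoters, with 5 matches in TSPAN2, of which 2 overlap by 1 base, 1 in TSPAN8 and none in TSPAN1. The AP-1 motif TGANTCA was found in 2 of 23 members (CD63 and TSPAN10) and in 6.57% of all promoters, the E-box CACGTG in 2 (CD63 and TSPAN6) and in 6.34%, and TATAAA in 1 (UPK1A) and in 10.7%. A match describes the letters only and is no measure of binding.

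Of the other tetraspanins, TSPAN4 rose most after TSPAN8 and TSPAN1. TSPAN4 (ENSG00000214063, chromosome 11, 842812 to 867116, plus strand) is known as the marker of migrasomes, vesicles left behind by moving cells. It had 22.0, 25.0 and 25.1 CPM with the KDM4A plasmid, against 6.75, 6.12 and 5.34 CPM with the control plasmid (log2 fold change 1.99, SE 0.10, edgeR adjusted p = 6.6e-12). Its groups were clearly separate. TSPAN4 lies 2980 bases downstream of CD151, with no protein-coding gene wholly between them, and both genes rose. The gap is not empty, since POLR2L, which overlaps CD151 and also rose, runs from 837356 to 842529 and covers most of it. On the same chromosome CD82 and TSPAN18 lie 106106 bases apart with no protein-coding gene between them, and they moved in opposite directions. TSPAN32 and CD81 lie 57972 bases apart, and TSPAN32 had 0 counts in every library while CD81 was among the most abundant members.

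TSPAN9 and TSPAN13 rose less. TSPAN9 (ENSG00000011105, chromosome 12), known in platelets, had 23.2, 25.5 and 24.2 CPM with the KDM4A plasmid, against 16.1, 16.8 and 15.9 CPM with the control plasmid (log2 fold change 0.58, SE 0.08, edgeR adjusted p = 1.8e-06). TSPAN13 (ENSG00000106537, chromosome 7) had 87.4, 83.2 and 85.3 CPM with the KDM4A plasmid, against 57.2, 53.3 and 62.7 CPM with the control plasmid (log2 fold change 0.56, SE 0.06, edgeR adjusted p = 2.3e-07). Neither gene's groups overlapped. The span of TSPAN9 overlaps a processed pseudogene on the opposite strand, which had 4772 counts with the KDM4A plasmid and 3611 with the control plasmid. TSPAN9 had 1345 and 1009.

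The 5 genes that fell were led by TSPAN2 (ENSG00000134198, chromosome 1, 115048011 to 115089503, minus strand), a tetraspanin known from oligodendrocytes. It had 2.73, 2.62 and 2.89 CPM with the KDM4A plasmid, against 9.13, 8.24 and 9.73 CPM with the control plasmid, which gave a log2 ratio of -1.73 (SE 0.13, edgeR adjusted p = 1.1e-09). It was the only tetraspanin that fell by at least 2-fold, although TSPAN7 came just short of that and passed it with exon length trends removed (-1.25). TSPAN7 (ENSG00000156298, chromosome X), a neuronal tetraspanin whose gene is linked to X-linked intellectual disability, had 6.57, 5.12 and 6.06 CPM with the KDM4A plasmid, against 11.8, 10.7 and 12.4 CPM with the control plasmid (log2 fold change -0.99, SE 0.12, edgeR adjusted p = 3.9e-07). TSPAN18 (ENSG00000157570, chromosome 11), known from endothelial calcium signalling, had 5.87, 5.03 and 4.58 CPM with the KDM4A plasmid, against 9.66, 9.23 and 9.07 CPM with the control plasmid (log2 fold change -0.85, SE 0.11, edgeR adjusted p = 2.8e-06). For all 3 every KDM4A plasmid library was below every control library. The span of TSPAN18 overlaps that of the more highly counted TP53I11 on the opposite strand, which rose (log2 fold change 0.28, SE 0.07, edgeR adjusted p = 0.00107).

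TSPAN6 and TSPAN12 were more abundant and fell by less. TSPAN6 (ENSG00000000003, chromosome X) had 106, 103 and 97.6 CPM with the KDM4A plasmid, against 131, 129 and 155 CPM with the control plasmid (log2 fold change -0.44, SE 0.07, edgeR adjusted p = 1.1e-05). Control replicate 3 was the high one. TSPAN12 (ENSG00000106025, chromosome 7), the co-receptor that strengthens Norrin signalling through FZD4 in retinal vessels, had 24.3, 25.7 and 24.5 CPM with the KDM4A plasmid, against 31.7, 32.3 and 33.7 CPM with the control plasmid (log2 fold change -0.39, SE 0.07, edgeR adjusted p = 4.2e-05). The fall of TSPAN12 stood beside a larger one of FZD4, at 8.76 ± 0.114 CPM with the KDM4A plasmid and 28.4 ± 2.64 CPM with the control plasmid (SD, n = 3 each). The log2 ratio of FZD4 was -1.69 (SE 0.09, edgeR adjusted p = 1.3e-11). Of the co-receptors, LRP5 rose (0.74, SE 0.09) and LRP6 fell (-0.60, SE 0.07), a fall that became a log2 fold change of 0.10 once exon length trends were removed, and NDP, the gene of Norrin, had 6 and 1 counts in all with the KDM4A and control plasmids and was not tested.

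TSPAN3, TSPAN31, TSPAN10 and UPK1B did not pass the test. TSPAN3 (ENSG00000140391, chromosome 15), the tetraspanin with the most counts, had 283, 276 and 272 CPM with the KDM4A plasmid, against 258, 247 and 302 CPM with the control plasmid (log2 fold change 0.04, SE 0.07, edgeR adjusted p = 0.574). Control replicate 3 stood above every KDM4A plasmid library and the other controls below them. The call turned on the setting, since TSPAN3 was higher without control replicate 3 (log2 fold change 0.12, edgeR adjusted p = 0.00819) and with exon length trends removed (0.47, edgeR adjusted p = 1.4e-05). TSPAN31 had 13.4, 12.4 and 11.4 CPM with the KDM4A plasmid, against 11.9, 10.9 and 10.3 CPM with the control plasmid, and the groups overlapped (log2 fold change 0.17, SE 0.10, edgeR adjusted p = 0.113). Its span overlaps that of CDK4 on the opposite strand, which had 14746 counts with the KDM4A plasmid and 13285 with the control plasmid, beside 684 and 682 for TSPAN31.

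Of the 6 TspanC8 genes 5 rose, 1 of them by at least 2-fold, and TSPAN10 did not pass. The called share of 83.3% was near the 78.6% of all genes, of which 40.0% were called higher, and the median log2 fold change of the 6 was 0.60. TSPAN14 (ENSG00000108219, chromosome 10, 80454166 to 80533124, plus strand) rose most, at 39.2, 40.5 and 42.0 CPM with the KDM4A plasmid, against 16.7, 18.0 and 15.3 CPM with the control plasmid (log2 fold change 1.28, SE 0.07, edgeR adjusted p = 3.2e-11). Its deposited exon length of 16183 bases is the longest in the family, and with exon length trends removed its log2 fold change was 2.17. TSPAN15 (ENSG00000099282, chromosome 10), known for promoting the shedding of N-cadherin, had 28.1, 30.5 and 32.5 CPM with the KDM4A plasmid, against 18.2, 16.4 and 15.0 CPM with the control plasmid (log2 fold change 0.88, SE 0.08, edgeR adjusted p = 3.4e-08).

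TSPAN17 (ENSG00000048140, chromosome 5) had 72.8, 73.2 and 70.8 CPM with the KDM4A plasmid, against 45.0, 39.7 and 43.8 CPM with the control plasmid (log2 fold change 0.76, SE 0.06, edgeR adjusted p = 2.0e-09). Per exon length it was the most abundant of the group in both conditions, at 53.7 ± 1.04 TPM with the KDM4A plasmid and 40.2 ± 2.61 TPM with the control plasmid (SD, n = 3 each). TSPAN33 (0.45, SE 0.08) and TSPAN5 (0.42, SE 0.06) rose by less on the log2 scale, with edgeR adjusted p = 7.8e-05 and 1.1e-05. TSPAN33 had 17.9 to 19.7 CPM with the KDM4A plasmid and 13.2 to 14.1 CPM with the control plasmid, and TSPAN5 had 34.6 to 36.3 and 25.9 to 27.6 CPM, so neither overlapped. In TPM the groups stood closer. TSPAN33 had 11.6 ± 0.749 TPM with the KDM4A plasmid and 10.7 ± 0.650 TPM with the control plasmid. TSPAN5 had 19.6 ± 0.833 and 18.5 ± 0.280 TPM. TSPAN10, known from pigment cells and the eye, had 4.13, 4.74 and 4.65 CPM with the KDM4A plasmid, against 4.22, 3.26 and 4.07 CPM with the control plasmid (log2 fold change 0.23, SE 0.14, edgeR adjusted p = 0.148). Its span overlaps the far more highly counted NPLOC4 on the opposite strand.

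Of the uroplakins and leukocyte tetraspanins, only UPK1B had enough counts to be tested, with 70 counts with the KDM4A plasmid and 74 with the control plasmid. It had 1.57, 1.18 and 1.06 CPM with the KDM4A plasmid, against 1.00, 1.28 and 1.27 CPM with the control plasmid (log2 fold change 0.09, SE 0.24, edgeR adjusted p = 0.727), and the groups overlapped. UPK1A had 2, 3 and 3 counts with the KDM4A plasmid, against 0, 2 and 1 with the control plasmid, and was not tested. The uroplakins outside the family, UPK2, UPK3A and UPK3B, with 5, 14 and 6 counts with the KDM4A plasmid and 4, 1 and 0 with the control plasmid, were not tested either. CD37 had 1, 3 and 1 counts with the KDM4A plasmid, against 2, 3 and 3 with the control plasmid, and CD53 had 1, 2 and 1 against 4, 3 and 0. TSPAN32 had 0 counts in both groups, which allows up to 0.0536 CPM with the KDM4A plasmid and 0.0491 CPM with the control plasmid (3 counts over the 3 libraries of a group, counting error only). TSPAN11 (25 counts with the KDM4A plasmid and 32 with the control plasmid), TSPAN16 (2 and 1) and TSPAN19 (21 and 20) were the other members too low to be tested.

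Of 63 genes in 7 lists whose products act with tetraspanins, 57 were tested, of which 37 rose, 12 fell and 8 did not pass, with a median log2 fold change of 0.58. Among all genes 78.6% were called, 40.0% higher and 38.6% lower, and the counts of each list below stand beside these shares. With exon length trends removed, 39 partner genes were called higher and 7 lower, with a median of 0.76.

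Of 7 genes of integrins known to bind tetraspanins, 6 rose and 1 fell, with a median log2 fold change of 0.67. Of all genes 78.6% were called, 40.0% of them all higher and 38.6% lower. The rises ran from 0.21 (SE 0.05) for ITGB1, the beta chain that many integrins share, through 0.60 for ITGA5, 0.67 for ITGA7 and 1.24 for ITGA6, to those of ITGB4 and ITGA3. ITGA3, the alpha chain of a laminin receptor and a close partner of CD151, had 66.3 ± 4.68 CPM with the KDM4A plasmid and 6.19 ± 0.236 CPM with the control plasmid (log2 fold change 3.42, SE 0.08, edgeR adjusted p = 2.2e-16). ITGB4, the beta chain of the hemidesmosome integrin, had 19.7 ± 2.71 and 2.11 ± 0.394 CPM with the KDM4A and control plasmids (3.22, SE 0.14, edgeR adjusted p = 9.7e-13). ITGA4, the alpha chain of a leukocyte and neural integrin, fell to 10.6 ± 0.762 CPM with the KDM4A plasmid, against 34.7 ± 1.01 CPM with the control plasmid (-1.72, SE 0.08, edgeR adjusted p = 1.5e-12).

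Among immunoglobulin and other membrane partners, 12 of 15 rose, none fell and 3 did not pass, beside 40.0% of all genes higher and 38.6% lower. EPCAM, which joins CLDN7 and TSPAN8 or CD9 in complexes in carcinoma cells, rose by 4.14 (SE 0.07, edgeR adjusted p = 1.7e-18), to 330.0 ± 17.7 CPM with the KDM4A plasmid, against 18.7 ± 0.990 CPM with the control plasmid. It is also 1 of the epithelial markers above. The direct CD9 and CD81 partners IGSF8 and PTGFRN rose by 0.98 (SE 0.10) and 0.38 (SE 0.05).

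Genes of ADAM10 and its substrates moved in both directions, as did all genes tested, of which 40.0% were called higher and 38.6% lower. ADAM10 rose by 0.55 (SE 0.06, edgeR adjusted p = 7.3e-08), to 129 ± 7.60 CPM with the KDM4A plasmid, against 88.3 ± 1.76 CPM with the control plasmid, while the related protease gene ADAM17 fell by 0.21 (SE 0.06, edgeR adjusted p = 0.00688). Of the 11 genes tested on that list 7 rose and 4 fell. CX3CL1, a membrane-bound chemokine shed by ADAM10, rose most (24.5 ± 1.88 CPM with the KDM4A plasmid and 0.531 ± 0.161 CPM with the control plasmid, log2 fold change 5.51, SE 0.16, edgeR adjusted p = 2.8e-15), followed by the hyaluronan receptor CD44 (3.11, SE 0.10). The largest falls were those of N-cadherin CDH2 (-1.63, SE 0.07, edgeR adjusted p = 5.4e-13) and NOTCH2 (-0.81, SE 0.07, edgeR adjusted p = 4.4e-09), and that of NOTCH2 was not called once exon length trends were removed (-0.06, edgeR adjusted p = 0.269).

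Of 17 extracellular vesicle genes, 9 rose, 3 fell and 5 did not pass, where 78.6% of all genes were called, 40.0% higher and 38.6% lower. The syndecan genes SDC4 (2.50, SE 0.06, edgeR adjusted p = 2.7e-16) and SDC1 (2.45, SE 0.06, edgeR adjusted p = 3.4e-16) rose most, and SDCBP, the gene of syntenin, which links syndecans and CD63 to vesicle budding, rose by 0.66 (SE 0.06, edgeR adjusted p = 3.1e-08). PDCD6IP, the gene of the syntenin partner ALIX, fell to 204 ± 9.72 CPM with the KDM4A plasmid, against 311 ± 4.29 CPM with the control plasmid (-0.61, SE 0.05, edgeR adjusted p = 8.1e-09), and the adhesion gene ALCAM fell by 0.97 (SE 0.06, edgeR adjusted p = 8.9e-11). Over 16 other settings PDCD6IP ranged from -0.65 to -0.22 and ALCAM from -1.04 to -0.72, and both stayed called lower. The rise of the vesicle tetraspanins was therefore not shared by every gene of the vesicle list, and no vesicles were measured. Of 4 palmitoyl transferase genes, ZDHHC3 (0.38, SE 0.05) and ZDHHC20 (0.26, SE 0.05) rose and ZDHHC2 (-0.40, SE 0.07) and ZDHHC6 (-0.27, SE 0.06) fell. ZDHHC2 was not called once exon length trends were removed (-0.01, edgeR adjusted p = 0.873), and ZDHHC3 was then at 1.16.

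**Figure D4:**
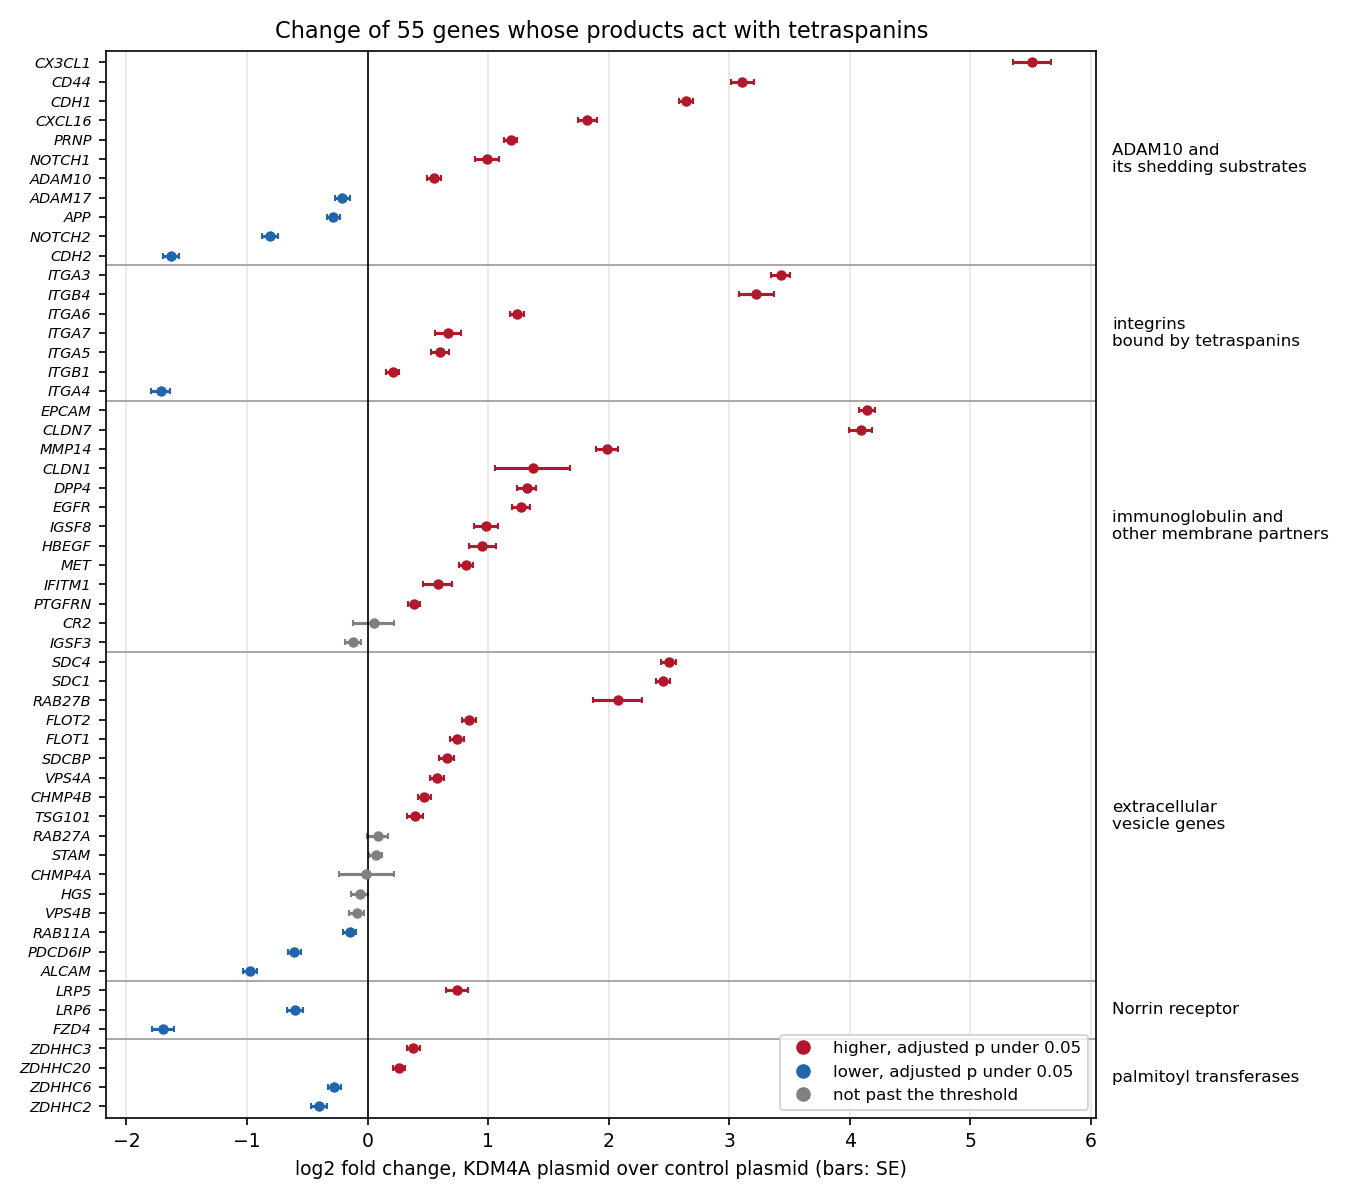
Log2 fold change of 55 of the 57 tested partner genes, KDM4A plasmid over control plasmid, with bars for the SE, in 6 lists and coloured by the edgeR call. CX3CL1 lies farthest right at 5.51 and ITGA4 farthest left at -1.72, and none of the immunoglobulin and other membrane partners drawn was called lower.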

How the data were processed

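RNA from 6 HCT8 libraries was measured by mRNA sequencing. The authors deposited raw counts of reads per gene with exon lengths, symbols and GRCh38.p13 locations, per the file headers. Reads were handled with HISAT2 and HTSeq on GRCh38, per the submitters' processing notes. No source used here gives their versions or the strand setting. 0 columns were left unmatched.

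From the counts, filterByExpr with a minimum count of 10 kept 17147 genes, with 99.8% to 99.9% of every library's reads. Groups were compared with edgeR 4.0.16 (R 4.3.3): TMM factors, robust quasi-likelihood fit, no covariates, Benjamini-Hochberg adjustment over all genes and a threshold of 0.05. Log2 fold changes are KDM4A plasmid over control plasmid. TPM used deposited exon lengths. The procedure was tested on simulated counts. Alternatives were DESeq2 1.42.0, limma 3.58.1 (voom), other scalings and filters, no robust option, a replicate block, removal of exon length trends and leaving out each library.

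All members were reported; of each partner list, up to 2 largest rises and 2 largest falls were named, and other partners named were chosen after their values were seen, as was the count of CG dinucleotides. Members and lists were chosen with earlier results of these data known. Within a group, pairs of libraries had a chi-square of 1.48 to 10.7 per degree of freedom, above counting noise, so each was treated as 1 replicate. This does not show that they came from separate cultures. The largest values, 10.7 and 7.63, were those of control replicate 3 with the other controls. Promoters are from RefSeq. Of the partner genes, 2 are counted but not reported here by name.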

Additional observations from a re-analysis of the deposited data

How the results depend on the processing

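All 20 calls on tetraspanins (15 higher, 5 lower) kept their side of the threshold and their direction in each of 16 other settings, of which 6 left out 1 library. The count of called tetraspanins was 20 in all of these except 22 with exon length trends removed and 21 without control replicate 3, through TSPAN3 in both and TSPAN31 in the first (log2 fold change 0.26, adjusted p = 0.0196). Among members that were not called, the sign of TSPAN3 reversed with library size alone (-0.0035), without control replicate 1 (-0.0024) and without control replicate 2 (-0.025). That of UPK1B reversed with exon length trends removed (-0.12), without KDM4A plasmid replicate 1 (-0.064) and without control replicate 1 (-0.020), and that of TSPAN10 with exon length trends removed (-0.11). LRP6 reversed in that setting too (0.10). Over the 6 fits without 1 library, TSPAN3 ranged from -0.025 to 0.12 and UPK1B from -0.064 to 0.19. The cause was not tested. Called partner genes numbered 46 to 53 in the other settings, beside 49. With exon length trends removed they were 39 higher and 7 lower, against 37 and 12. Replicate numbers are shared by the groups, but same-numbered libraries did not deviate together (correlations -0.148, 0.0338 and -0.0913), and not every library correlated best with its own number. With the replicate block 20 tetraspanins and 48 partner genes were called. Without a filter, 6 of the 7 low members could be fitted and none was called (unadjusted p 0.136 to 0.658). Low counts limit UPK1A, CD37, CD53, TSPAN11, TSPAN16, TSPAN19 and TSPAN32.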
